A study of Populus tremula x Populus alba with 3 samples.

Results

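Genes of the mitotic spindle, of chromosome condensation and of the cell plate were described in shoot apices of hybrid poplar (Populus tremula x Populus alba, clone 717-1B4). They were chosen by their text, as those rows of the authors' deposited table whose Arabidopsis best hit is named or described by a word of cell division, such as kinesin, microtubule, condensin, topoisomerase, cyclin, syntaxin or mitotic, or by MYB3R, NACK1 or GIP1. This gave 28 of the 318 genes in the authors' deposited table, with 23 different best hits. RNA was sequenced from 2 lines that over-express CsDML, labelled OX1 and OX3, with 1 library each, and from wild type (WT), with 1 library. All were apices taken after 28 days in SD, and all plants were of the same clone. SD is taken, from what is known of the study, as short days, which lead poplar apices to stop growing and form buds, and CsDML as a DEMETER-like DNA demethylase of chestnut. The labels name neither the promoter of the transgene nor the number of plants behind a library.

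A dividing plant cell condenses its chromosomes, separates them on a spindle of microtubules, and then builds a new wall from the inside outwards. The wall starts as the cell plate, a disc of fusing vesicles that the phragmoplast, a second array of microtubules, carries to the edge of the cell. Kinesins are motors that move along or bundle these microtubules, and many genes of the process are switched on together just before mitosis, by transcription factors of the MYB3R family. In the apex, dividing cells sit in the meristem and the young leaves, and division stops as a bud forms. The roles given below were worked out in Arabidopsis, and poplar genes are called by their Arabidopsis best hits.

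The authors' deposited table gives 1 log2 fold change per gene, both over-expressing lines joined against WT, with a mean level over the libraries (log2 CPM, where CPM is a read count scaled to the library total), a p-value and an adjusted p-value. Values per line were not analysed here. The depth of the libraries is unknown. WT had 1 library, so no spread between wild-type samples stands behind the p-values, and no test was added. A gene is said to have risen or fallen at an adjusted p under 0.05, and to be listed higher or lower between 0.05 and 0.1, the limit of the table. For each group an approximate CPM was solved from the fold and the mean level of the authors' deposited table, taking the 2 over-expressing libraries as equal in level and all 3 libraries as equal in depth. CPM is not scaled to gene length, so levels are compared between groups and not between genes.

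Division genes were lower in the over-expressors almost throughout. Of the 28, 21 fell and 0 rose in the authors' deposited table, 6 more were listed lower and 1, GIP1, was listed higher. At an unadjusted p under 0.05, 1 of the 28 was higher in the authors' edgeR comparison, again GIP1. Every listed gene passes that limit, so this count adds nothing, and unlisted division genes that pass it cannot be seen. Among all 41335 genes tested, 0.387% fell and 0.104% rose by the same rule, and with the genes listed up to 0.1 the shares were 0.578% lower and 0.191% higher. Of all 239 lower genes of the authors' deposited table, 160 fell and 79 were listed lower, so most listed lower genes of any kind fell. Being in the table is part of how the genes were chosen, so their count is a description and carries no test, and how many division genes were tested but not listed is not known. Their median log2 fold change was -1.35 in the authors' deposited table, which puts the over-expressors at 39.3% of the WT level, and the median over all 318 listed genes was -1.09. The division genes found by the pattern made up 27 of the 239 lower genes (11.3%) and 1 of the 79 higher genes (1.27%) of the authors' deposited table. The words of the pattern were chosen with earlier results of these data known, so the difference between these shares is a description and no enrichment. Genes of division described in other words are not in these shares. In apices, fewer dividing cells and less RNA per dividing cell cannot be told apart.

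**Figure D1:**
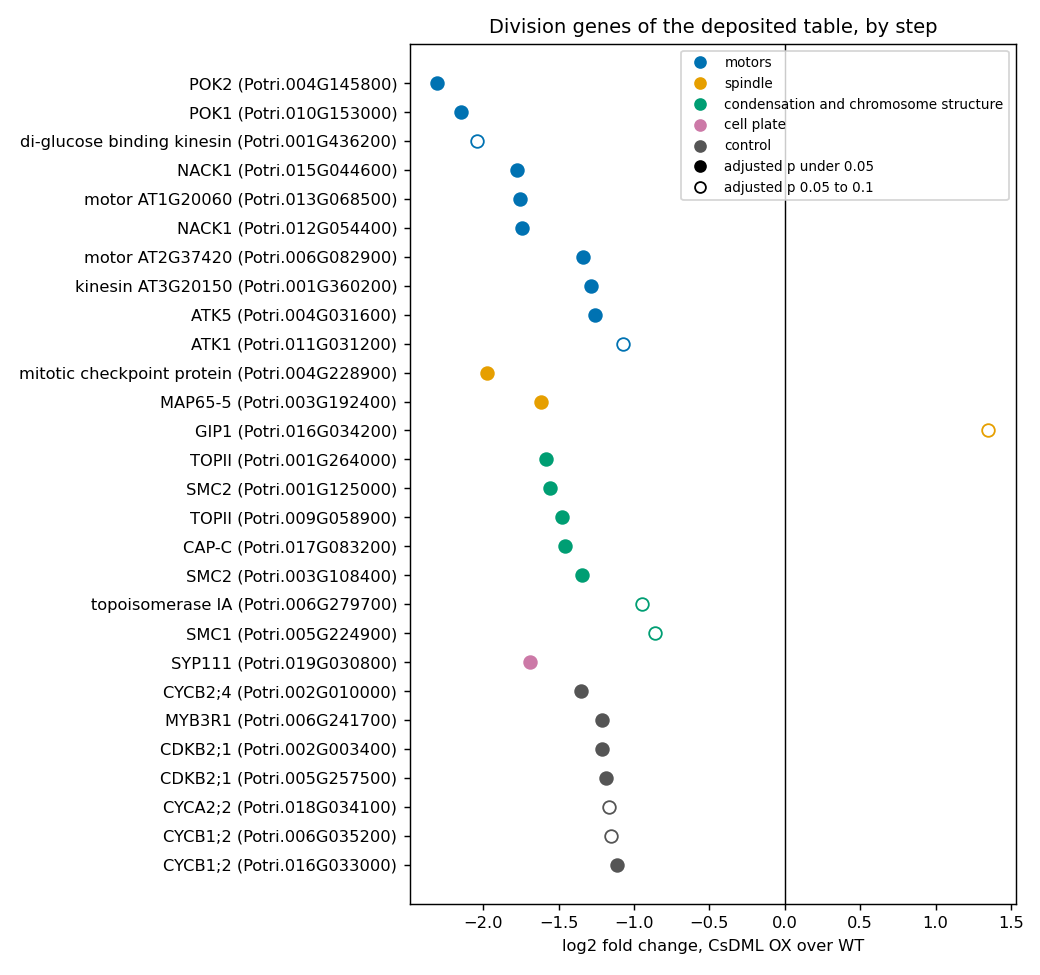
Log2 fold change of each of the 28 division genes, CsDML OX over WT, from the authors' deposited table, ordered by step. Filled points have an adjusted p under 0.05 and open points one of 0.05 to 0.1; 27 genes lie between -2.30 and -0.86 and GIP1 alone lies above 0, at 1.35.

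Among the 28 genes, the motors POK2 and POK1 had the steepest changes. The word pattern found 10 motor genes, of which 8 fell and 2 were listed lower in the authors' deposited table. The median of the 10 was a log2 fold change of -1.75. Motors described without a word of the pattern are not among the 10. POK2 (Potri.004G145800), a phragmoplast orienting kinesin that guides the growing cell plate to its place on the old wall, stood at about 7.74 CPM in the over-expressors, against 38.2 CPM in WT. Its log2 fold change was -2.30 at an adjusted p of 5.80e-11 per the authors' deposited table, so the over-expressors held 20.3% of the WT level. POK1 (Potri.010G153000), its close relative with the same task, stood at about 3.61 CPM in the over-expressors and 16.0 CPM in WT. The log2 fold change of POK1 was -2.15 at an adjusted p of 7.95e-06 per the authors' deposited table. Each of these 2 genes was the steepest among the lower genes of like level, that is within 0.5 of its mean level on the log2 CPM scale, which were 44 for POK2 and 41 for POK1 in the authors' deposited table. The medians of those lower genes, each with the gene itself included, were -1.17 for POK2 and -1.40 for POK1.

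NACK1, also called HINKEL, is a kinesin that starts the signal by which the phragmoplast widens. Both of its poplar genes in the authors' deposited table fell by nearly the same amount. Potri.015G044600 had a log2 fold change of -1.78 (adjusted p 0.0276) and stood at about 2.15 CPM in the over-expressors, against 7.34 CPM in WT, per the authors' deposited table. Potri.012G054400 had a log2 fold change of -1.75 (adjusted p 0.000903) and stood at about 4.56 CPM in the over-expressors, against 15.3 CPM in WT, per the authors' deposited table. The folds are alike and the adjusted p-values differ, in the order of the mean levels, 1.96 and 3.02 on the log2 CPM scale.

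A further 3 motors are known only by a family description. The microtubule motor with best hit AT1G20060 (Potri.013G068500) fell by 1.76 on the log2 scale at an adjusted p of 0.0468 per the authors' deposited table, the value nearest below the threshold among the division genes. The motor with best hit AT2G37420 (Potri.006G082900) fell by 1.34 (adjusted p 0.00540) and the kinesin with best hit AT3G20150 (Potri.001G360200) fell by 1.29 (adjusted p 0.00920) per the authors' deposited table. All 3 stood at less in the over-expressors, at about 1.85, 10.5 and 11.1 CPM, against 6.26, 26.5 and 27.0 CPM in WT. Nearest above the threshold was a kinesin described as a di-glucose binding protein (Potri.001G436200), listed with a change of -2.04 at an adjusted p of 0.0521 per the authors' deposited table. The fewest reads of the 28 genes stood behind it (mean log2 CPM 1.33), with about 1.23 CPM in the over-expressors and 5.08 CPM in WT.

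ATK5 and ATK1 are motors that walk to the minus ends of microtubules and draw the spindle together at its poles. They showed the smallest differences among the motors. ATK5 (Potri.004G031600) fell by 1.26 on the log2 scale (adjusted p 0.00965) per the authors' deposited table, to about 12.6 CPM in the over-expressors, against 30.2 CPM in WT. ATK1 (Potri.011G031200) was listed with a change of -1.08 at an adjusted p of 0.0647 per the authors' deposited table, about 11.7 CPM in the over-expressors and 24.6 CPM in WT. The named motors of the phragmoplast, POK1, POK2 and NACK1, thus lay at -1.75 or lower and these spindle pole motors at -1.26 and -1.08. POK1 and both NACK1 genes had lower mean levels than ATK5 and ATK1, and a change at low level has to be larger to be listed. The mean level of POK2 lay between those of ATK1 and ATK5. Lower genes of like level had a median of -1.76 for the NACK1 gene Potri.015G044600 and -1.36 for Potri.012G054400. Apart from POK2 the 2 kinds thus differed in level as well, and the difference in fold between them was not tested.

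**Figure D2:**
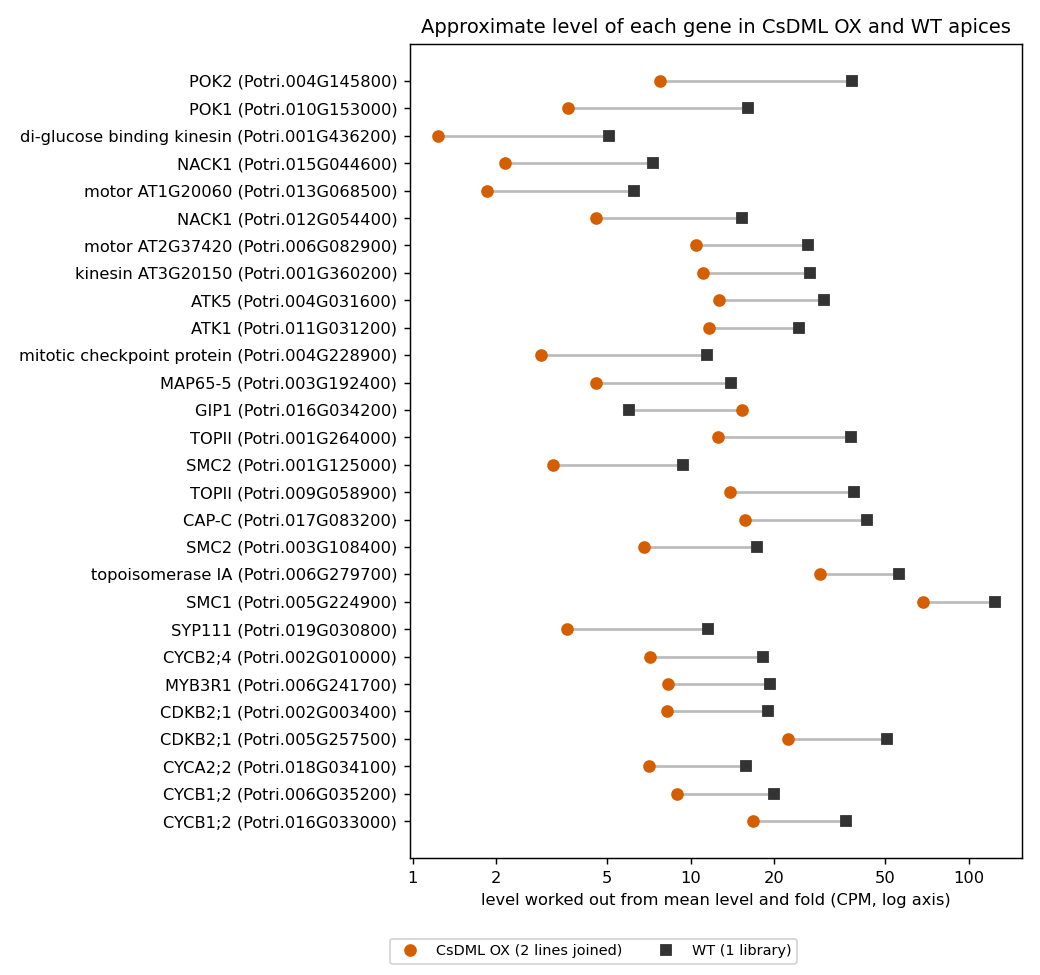
Approximate level of each division gene in the over-expressors (circles) and WT (squares), in CPM on a log axis, worked out from the mean level and fold of the authors' deposited table; each group has a single point because values per line were not used. The circle lies left of the square for 27 genes and right of it for GIP1, at about 15.3 CPM in the over-expressors and 5.99 CPM in WT.

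Of the 3 spindle genes that are no motors, 2 fell and 1 was listed higher in the authors' deposited table. The row described as a mitotic checkpoint family protein (Potri.004G228900), of the system that holds back chromosome separation until all are attached, fell by 1.97 (adjusted p 0.000676) per the authors' deposited table. It stood at about 2.91 CPM in the over-expressors, against 11.4 CPM in WT. MAP65-5 (Potri.003G192400), which ties microtubules into bundles, fell by 1.62 (adjusted p 0.00374) per the authors' deposited table, to about 4.55 CPM in the over-expressors, against 14.0 CPM in WT.

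GIP1 was the exception in direction. It is a small protein that binds the gamma-tubulin complex, from which new microtubules grow. GIP1 (Potri.016G034200) was listed with a change of 1.35, at an adjusted p of 0.0566 per the authors' deposited table, so it missed the threshold. The over-expressors stood at about 255% of the WT level. Its chromosome, 16 by the gene ID, also carries a CYCB1;2 gene that fell, and no other row of the authors' deposited table has the best hit of GIP1.

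Most listed genes of chromosome condensation and structure fell, as did 160 of all 239 lower genes. Of 7 genes in this step, 5 fell and 2 were listed lower in the authors' deposited table, and the median of the 7 was a log2 fold change of -1.46. Topoisomerase II, which passes one DNA double strand through another and so untangles sister chromosomes, had 2 genes that fell. Potri.001G264000 fell by 1.58 (adjusted p 5.14e-05) per the authors' deposited table, to about 12.6 CPM in the over-expressors, against 37.8 CPM in WT. Potri.009G058900 fell by 1.48 (adjusted p 0.000259) per the authors' deposited table, to about 13.9 CPM in the over-expressors, against 38.6 CPM in WT. This gene has a chromosome 9 ID. On that chromosome the authors' deposited table lists 15 genes higher and 6 lower, and the topoisomerase II gene is 1 of the 6.

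Condensin is the ring that folds mitotic chromosomes, and its core is a pair of SMC proteins. Genes for both proteins of the pair fell. SMC2, also named CAP-E1, had 2 genes in the authors' deposited table, at -1.56 (Potri.001G125000, adjusted p 0.0322) and -1.35 (Potri.003G108400, adjusted p 0.0162). They stood at about 3.19 and 6.80 CPM in the over-expressors, against 9.41 and 17.3 CPM in WT. Its partner CAP-C (Potri.017G083200), whose description in the table reads SMC 3 and whose aliases include SMC4, fell by 1.46 (adjusted p 0.000201) per the authors' deposited table. CAP-C stood at about 15.6 CPM in the over-expressors, against 43.0 CPM in WT.

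The rows at the edge of this step act outside condensation proper. SMC1 (Potri.005G224900) belongs to cohesin, the ring that holds sister chromosomes together, and was listed with a change of -0.86 at an adjusted p of 0.0962 per the authors' deposited table. It was the smallest change of the 28, with about 68.4 CPM in the over-expressors and 124 CPM in WT. A type IA DNA topoisomerase (Potri.006G279700), an enzyme that relaxes DNA by cutting 1 strand and whose part in division is not stated in the table, was listed with a change of -0.95 at an adjusted p of 0.0647 per the authors' deposited table. The 5 genes of topoisomerase II and condensin thus fell and these 2 missed the threshold.

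Among the 28 genes, 1 belonged to the cell plate itself. SYP111, known as KNOLLE, is the syntaxin that fuses vesicles into the plate and is made in dividing cells. It fell by 1.69 (Potri.019G030800, adjusted p 0.00733) per the authors' deposited table, to about 3.59 CPM in the over-expressors, against 11.6 CPM in WT.

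Control genes had the smallest median change of the 5 steps. Of 7 genes, 5 fell and 2 were listed lower in the authors' deposited table, all between -1.35 and -1.11, with a median of -1.19. MYB3R1 (Potri.006G241700), a factor of the family that acts on the promoters of mitotic genes and can activate or repress them, fell by 1.21 (adjusted p 0.0407) per the authors' deposited table. It stood at about 8.31 CPM in the over-expressors, against 19.2 CPM in WT. CDKB2;1, a kinase of a plant-specific class that drives entry into mitosis, had 2 genes in the authors' deposited table, at -1.21 (Potri.002G003400, adjusted p 0.0408) and -1.19 (Potri.005G257500, adjusted p 0.00716). They stood at about 8.24 and 22.4 CPM in the over-expressors, against 19.0 and 51.1 CPM in WT.

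Cyclins bind and activate such kinases, those of the B type at mitosis and those of the A2 type from DNA synthesis onwards. Of 4 cyclin genes, 2 fell and 2 were listed lower in the authors' deposited table. CYCB2;4 (Potri.002G010000) fell by 1.35 (adjusted p 0.0162) per the authors' deposited table, to about 7.14 CPM in the over-expressors, against 18.2 CPM in WT. One CYCB1;2 gene fell by 1.11 (Potri.016G033000, adjusted p 0.0241) and the other was listed with a change of -1.15 (Potri.006G035200, adjusted p 0.0558) per the authors' deposited table. CYCA2;2 (Potri.018G034100) was listed with a change of -1.17 at an adjusted p of 0.0828 per the authors' deposited table, about 7.07 CPM in the over-expressors and 15.9 CPM in WT.

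The size of a listed change went with the level, so steps with different read depth cannot be ranked by fold alone. Across the 27 lower division genes the size of the log2 fold change and the mean level had a Spearman's rho of -0.64, and across all 239 lower genes of the authors' deposited table one of -0.81 (across genes, which share the same 3 libraries). A change at low level has to be larger to enter the table. The smallest listed decrease was -1.30 at mean levels between 2 and 3 and -0.94 between 4 and 5 in the authors' deposited table.

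Set beside lower genes of like level, division genes were close to the rest in size. The rest includes genes of division that the word pattern missed, such as TPX2, AUR1, EB1C and DRP5A, described further on. So the comparison is not one of division genes with genes of other kinds alone. Between 2 and 3 on the log2 CPM scale the median log2 fold change was -1.69 for 5 division genes and -1.66 for 27 other lower genes of the authors' deposited table. Between 3 and 4 the medians were -1.27 for 8 division genes and -1.24 for 33 others, and between 4 and 5 they were -1.29 for 9 and -1.12 for 43. In the other bins division genes were few and their change was smaller than that of the others. The medians were -1.78 for 3 division genes and -1.89 for 17 others between 1 and 2, -0.95 for 1 and -1.03 for 44 between 5 and 6, and -0.86 for 1 and -0.93 for 26 between 6 and 7. Of the 27 lower division genes, 16 were steeper than the median of the lower genes within 0.5 of their level, themselves included, in the authors' deposited table. Among these were 7 of 10 motors, 4 of 7 condensation genes and 2 of 7 control genes.

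**Figure D3:**
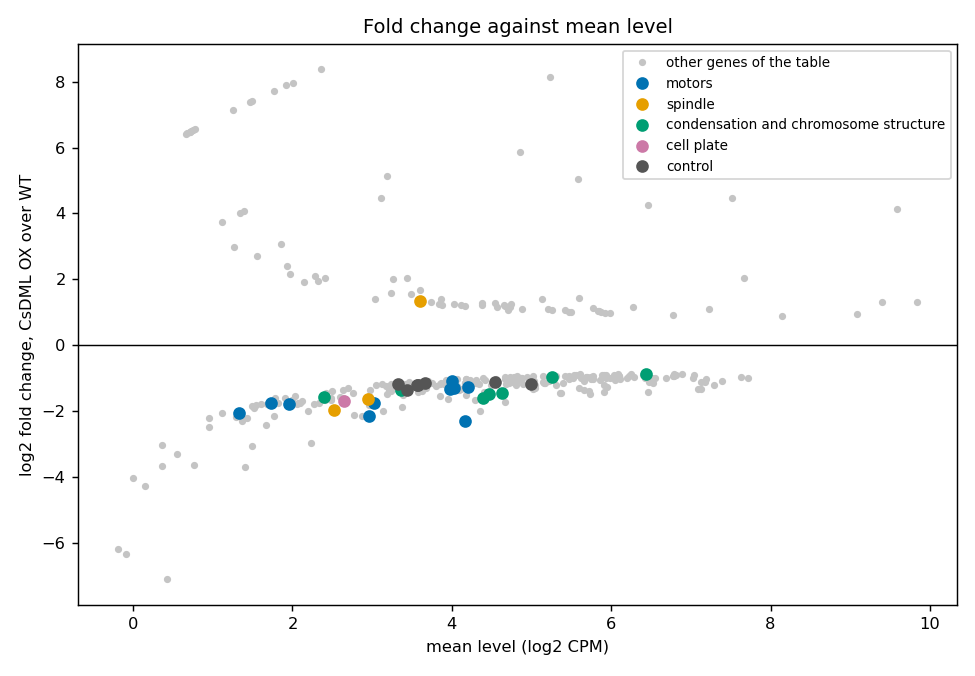
Log2 fold change (CsDML OX over WT) against mean level (log2 CPM) for all 318 genes of the authors' deposited table, with the division genes coloured by step and the others in grey. Most division genes lie in the band of the other lower genes; POK2, at a level of 4.16 and a change of -2.30, lies below it.

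Genes of like fold and level had like p-values. With no spread between wild-type samples behind the p-values, this likeness is no result about the genes. MYB3R1 and the first CDKB2;1 gene had log2 fold changes of -1.21 and -1.21 at mean levels of 3.58 and 3.57, and adjusted p-values of 0.0407 and 0.0408, in the authors' deposited table. CYCB2;4 and Potri.003G108400 (SMC2) had changes of -1.35 and -1.35 at levels of 3.44 and 3.36 in the authors' deposited table. Their unadjusted p-values in the authors' edgeR comparison were 4.64e-05 and 4.53e-05. The adjusted p of 0.0162 that they share is a tie made by the adjustment, and genes of other folds and levels hold it too.

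Poplar often keeps 2 copies of a gene, and for 5 best hits the pair was listed, namely NACK1, topoisomerase II, SMC2, CDKB2;1 and CYCB1;2. All 5 pairs were lower in both copies and 4 of them fell in both, CYCB1;2 being the exception, in the authors' deposited table. Only pairs with both copies listed could be formed, so a copy that did not change is left out. Agreement between listed copies, in direction and in size, is partly set by this choice and carries no test. The copies of a pair differed by 0.02 for CDKB2;1, 0.03 for NACK1, 0.04 for CYCB1;2, 0.11 for topoisomerase II and 0.21 for SMC2 on the log2 scale of the fold change. Another 25 best hits had exactly 2 rows in the authors' deposited table, all lower in both copies, with a median difference of 0.17 and a range of 0.0006 to 0.76. The sources used here do not say how reads were shared out between like copies, so 1 read may have counted for either.

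**Figure D4:**
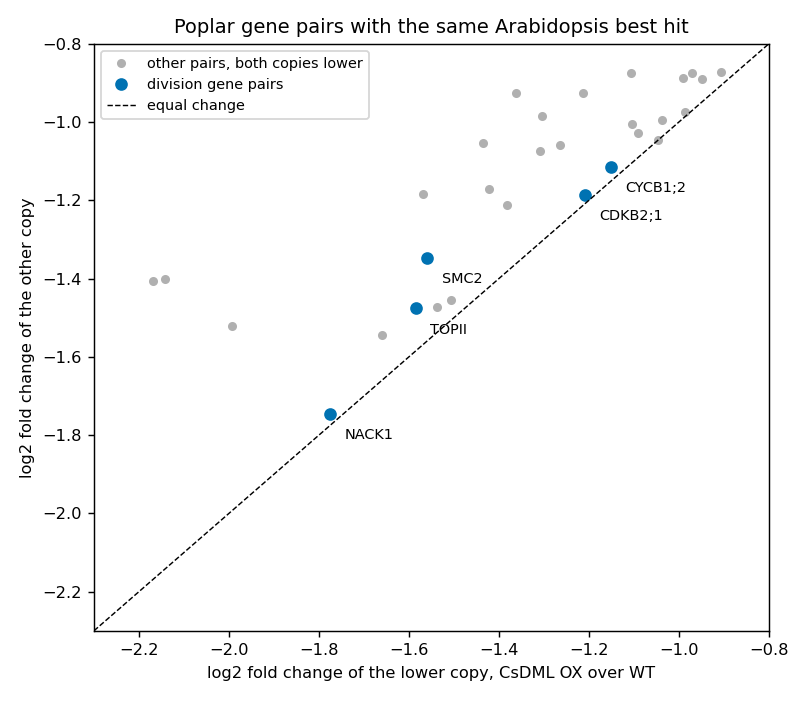
Log2 fold change (CsDML OX over WT) of the lower copy on the horizontal axis and of the other copy on the vertical axis, for pairs of poplar genes with the same best hit in the authors' deposited table; the dashed line marks equal change. The 5 division pairs (blue) lie between 0.02 and 0.21 from it in log2 fold change, and the 25 other pairs (grey) up to 0.76.

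By their IDs the 28 division genes lie on 16 chromosomes. Chromosomes 1 and 6 carry 4 each, all lower in the authors' deposited table, and chromosome 4 carries 3. None of the 28 has an ID of chromosomes 7, 8 or 14 or of unplaced sequence.

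Neighbouring processes were read from 10 lists of name and description patterns. DNA replication had 2 rows, both lower in the authors' deposited table. ICU2, a DNA polymerase subunit, fell by 1.11 (adjusted p 0.0147) and RNR1, the large subunit of ribonucleotide reductase, which makes the building blocks of DNA, was listed with a change of -0.999 (adjusted p 0.0595) per the authors' deposited table. Cell cycle kinases and checkpoints had 5 rows, all lower, 2 of them the CDKB2;1 genes above. The other 3 were listed lower in the authors' deposited table, namely TPX2, which helps build the spindle (-1.12, adjusted p 0.0655), a TPX2 family gene (-1.05, adjusted p 0.0897) and the mitotic kinase AUR1 (-1.02, adjusted p 0.0957). The cohesion list took in SMC1 and, through an alias, CAP-C.

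Of 8 core histone rows 4 fell, 1 rose and 3 were listed lower in the authors' deposited table, and both rows of the actin and myosin list were listed lower. The cell wall list had 6 of 12 rows fallen and 2 risen in the authors' deposited table, 4 of the remainder being listed without passing the threshold.

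The lists of tissue markers had few rows in the authors' deposited table, and these went both ways. Both rows of the leaf marker list were higher in the authors' deposited table, LHCA3 of the light-harvesting antenna by 1.43 (adjusted p 0.00135) and PSAO of photosystem I by 1.08 (adjusted p 0.0558). By its ID PSAO lies on chromosome 9, where 15 genes are listed higher and 6 lower. The summed level of LHCA3 and PSAO was about 108 CPM in the over-expressors and 44.6 CPM in WT. The single xylem row, XCP1, fell by 1.75 (adjusted p 0.0489) per the authors' deposited table. The phloem and meristem lists had 0 rows, and since the table holds only genes that differ, the labelled tissue could not be checked against its own markers. The part of a changed tissue makeup in the lower division genes was not tested.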

How the data were processed

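Strand-keeping libraries were prepared from total RNA, per the labels' protocols. The authors used FastQC, TopHat and edgeR, per the submitters' processing notes. Versions, genome build, annotation, read counter and the form of the test were not given in the sources used here. Per the file headers, the deposited table holds a log2 fold change, a mean log2 CPM, a p-value and an adjusted p-value per gene, for CsDML OX against WT. The log base was read as 2 from the authors' column names, which are those of edgeR.

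Benjamini-Hochberg values over 41335 tests equalled those deposited for 318 of 318 genes, within a relative tolerance of 1e-06, so the table holds every test under 0.1. No fold change was tested again. Division genes were sorted by hand into 5 steps from name and description. Every one is named, and of each other list up to 4 rows were. Members, lists and steps were chosen with earlier results of these data known. Group levels solve mean CPM = (2 OX + WT)/3 with the deposited fold. Python 3.11.15, pandas 2.3.3 and scipy 1.17.1 were used, and the scripts were tested on simulated data. Alternatives were other thresholds, minimum fold and level, and membership by process, best hit or description. No genome was used.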

Additional observations from a re-analysis of the deposited data

How the results depend on the processing

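Of the 28 division genes, 21 fell at an adjusted p under 0.05, 13 at 0.01 and 27 at 0.1 in the authors' deposited table; the gene that passes as higher at 0.1 is GIP1, which makes 1 risen there and 0 otherwise. At 0.01 the genes left were 6 motors, 2 spindle, 3 condensation, 1 cell plate and 1 control gene, so 1 of 7 control genes passes the stricter threshold. The count fallen was 21 with a minimum absolute log2 fold change of 1, 21 with genes under a log2 CPM of 1 left out, 14 with those under 3 left out, 21 without SMC1 and the type IA topoisomerase, 17 with 1 row per best hit and 20 when the description alone was searched. The median log2 fold change lay between -1.58 and -1.23 over these 8 alternatives. The limit at a log2 CPM of 1 left out none of the 28, whose lowest mean level was 1.33. The fold limit left out only SMC1 and the type IA topoisomerase, which had not fallen. The count could thus not change under either limit, nor when these genes were left out by name. Leaving out a library could not be done, because the table gives 1 value per gene. No paired analysis was possible because the deposited table holds 1 comparison and no values per library. The p-values rest on 1 WT library. Smaller changes are not listed, and genes of low level are listed only where their change was large.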

Other observations

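Other genes named for division lie outside the word pattern. They were chosen after their values were seen, so their direction supports nothing and no count is drawn from them. At microtubules, EB1C, a protein that rides on growing microtubule ends, fell by 1.59 (Potri.007G048700, adjusted p 0.0117) per the authors' deposited table, to about 3.71 CPM in the over-expressors, against 11.2 CPM in WT. MOR1, which promotes microtubule growth, had 2 genes, 1 that fell by 0.97 (Potri.011G153700, adjusted p 0.0428) and 1 listed at -0.87 (Potri.001G443200, adjusted p 0.0780) per the authors' deposited table. The alpha-tubulin gene TUA6 was listed at -0.86 (Potri.017G081000, adjusted p 0.0922) per the authors' deposited table. PS1, which sets the orientation of spindles in meiosis, was listed at -1.34 (Potri.013G114700, adjusted p 0.0751) per the authors' deposited table.

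At the cell plate, DRP5A, a dynamin-related protein of cytokinesis, fell by 1.77 (Potri.011G118500, adjusted p 0.0115) per the authors' deposited table, to about 2.67 CPM in the over-expressors, against 9.10 CPM in WT. The kinases FU and RUK, both needed for phragmoplast organisation in Arabidopsis, fell by 1.18 (Potri.019G052500, adjusted p 0.0119) and by 1.30 (Potri.008G195800, adjusted p 0.0322) per the authors' deposited table. CSLD5, a synthase that supplies wall polymer to the plate, had 2 genes listed at -1.43 and -1.05 (Potri.002G200300, adjusted p 0.0644; Potri.014G125100, adjusted p 0.0611) per the authors' deposited table. FZR3, an activator of the complex that breaks down mitotic cyclins, had 1 gene that fell by 1.26 (Potri.010G202100, adjusted p 0.00965) and 1 listed at -1.06 (Potri.008G057500, adjusted p 0.0582) per the authors' deposited table.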
